A study of Mus musculus with 8 samples.

Results

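The genes described here are 10 genes of neutrophil granules and of the S100 family: S100a8, S100a9, Lcn2, Ngp, Camp, Ltf, Mmp8, Mmp9, Retnlg and Ly6g. They were taken by symbol from the platform annotation of the arrays, which named 19505 genes. A probe set carried the symbol of 9 of the 10, 1 probe set for each gene, and Ly6g was not analysed here.

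Neutrophils store antimicrobial proteins and proteases in granules that are filled in turn while the cell matures in the bone marrow. The azurophil (primary) granules hold myeloperoxidase and elastase, the specific (secondary) granules hold lactoferrin, lipocalin-2 and cathelicidin, and the gelatinase granules hold gelatinase B. S100A8 and S100A9 pair into calprotectin, a calcium- and zinc-binding complex that fills the neutrophil cytosol and, once released, signals through Tlr4 and the receptor Ager. Dendritic cells are not known for granules of this kind.

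The arrays measured RNA of splenic cDC1, the type 1 conventional dendritic cells, from naive wild-type C57BL/6 mice. The cells had been sorted by the mitochondrial dye signal TMRM relative to MG, which the labels do not spell out, into a TMRM/MG-high fraction (4 arrays) and a TMRM/MG-low fraction (4 arrays), and the comparison asks how the fractions differ. TMRM gathers in mitochondria according to their membrane potential. The mice carried no genetic change and received no treatment per the labels, which give no age and leave the meaning of a replicate number unstated (animal, pool of animals or day). The p-values therefore measure the spread between these arrays, which may be technical.

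Promoters are shown for the calprotectin pair and for the 3 genes with the widest range over the arrays, because these 5 genes read highest on low replicate 2 and lowest on high replicate 4, as described further on. Each is the run of 250 bases before the annotated start in RefSeq, build GRCm38.p6, written 5′ to 3′ along the gene, and capitals mark matches to a C/EBP motif, the binding sequence of a factor family that acts in granulocyte maturation.
S100a8 (chr3:90668821-90669070, plus strand): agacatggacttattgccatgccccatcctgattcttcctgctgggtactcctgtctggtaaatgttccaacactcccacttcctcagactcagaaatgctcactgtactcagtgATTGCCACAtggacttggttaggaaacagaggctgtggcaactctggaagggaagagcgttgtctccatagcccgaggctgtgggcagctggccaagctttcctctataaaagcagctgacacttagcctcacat
S100a9 (chr3:90695722-90695971, minus strand): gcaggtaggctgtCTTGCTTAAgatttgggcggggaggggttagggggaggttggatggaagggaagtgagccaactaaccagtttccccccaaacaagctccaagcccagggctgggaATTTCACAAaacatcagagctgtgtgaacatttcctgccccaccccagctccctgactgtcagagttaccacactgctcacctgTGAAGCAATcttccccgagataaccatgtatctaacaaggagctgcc
Lcn2 (chr2:32387740-32387989, minus strand): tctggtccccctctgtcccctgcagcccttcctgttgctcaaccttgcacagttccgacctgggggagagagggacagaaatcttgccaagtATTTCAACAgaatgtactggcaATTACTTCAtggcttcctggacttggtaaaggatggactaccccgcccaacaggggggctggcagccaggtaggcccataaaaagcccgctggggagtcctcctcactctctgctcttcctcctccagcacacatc
Ngp (chr9:110419558-110419807, plus strand): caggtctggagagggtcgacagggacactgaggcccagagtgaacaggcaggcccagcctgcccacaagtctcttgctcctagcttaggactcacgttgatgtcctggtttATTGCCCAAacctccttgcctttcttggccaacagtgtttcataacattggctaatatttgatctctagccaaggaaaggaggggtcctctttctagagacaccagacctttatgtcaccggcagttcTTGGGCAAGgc
Camp (chr9:109849457-109849706, minus strand): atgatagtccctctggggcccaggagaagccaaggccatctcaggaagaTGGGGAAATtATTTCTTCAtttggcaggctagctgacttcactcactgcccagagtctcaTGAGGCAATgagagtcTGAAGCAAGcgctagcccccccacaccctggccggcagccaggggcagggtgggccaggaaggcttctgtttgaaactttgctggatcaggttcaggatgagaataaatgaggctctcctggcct
The motif was searched on both strands as TTNNGNAAT or TTNNGNAAG or TGNNGNAAT or TGNNGNAAG. It was found in the windows of 7 of the 8 measured members that the promoter table holds, all but Mmp8, while 40.1% of the 32851 promoter windows of that length held it. Camp had 4 matches, S100a9 3, Lcn2 and Ngp 2 each and S100a8 1. The ETS core AGGAAGT was present in the windows of S100a8 and Mmp8 (7.69% of all windows), and TATAAA in that of S100a8 alone among the 8 (12.4% of all windows). Some matches overlap, as in Retnlg, and a match describes letters only. S100a8 and S100a9 are neighbours on chromosome 3 with 0 protein-coding genes between them. Camp and Ngp lie on chromosome 9 with 8 protein-coding genes between them, and Ltf lies on the same chromosome, 20 further genes past Ngp.

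Values are deposited log2 signals made with RMA, so a step of 1 is a doubling, and levels of different genes are not compared because probes differ in brightness. The cDC1 markers fixed for this check (12 of 12 measured, among them Xcr1, Clec9a and Batf3) had a mean level of 11.63 to 11.90 on all 8 arrays and none of them passed the test. Over all 22206 probe sets tested, 1173 were higher and 658 lower in TMRM/MG-high cells (limma, adjusted p under 0.05), or 64.1% higher. After a second quantile normalization the counts were 852 and 858, or 49.8% higher. High replicate 4 stood apart in what follows: it was the lowest array for 8 of the 9 members, and the difference without it is given for each member.

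All 9 members had a lower mean in the TMRM/MG-high fraction, and 0 of 9 passed the test over all probe sets. With the replicate number as a block, 3 of them were called lower (S100a8, S100a9 and Lcn2), as given at the end. Of all probe sets 2.96% were called lower, 5.28% higher and 8.25% in either direction, and 47.9% of all probe sets had a lower mean in the high fraction. The median difference of the 9 was -0.68 on the log2 scale, beside 0.0093 over all probe sets. An unadjusted limma p under 0.05 was reached by 5 of the 9, all lower, beside 10.1% of all probe sets that reached it in that direction. In none of the 9 did the 4 high arrays lie wholly below the 4 low arrays, which they did in 6.37% of all probe sets; in 9.7% they lay wholly above, and in 16.1% the fractions were apart in either direction. The genes were listed with earlier results of these data known, so these counts are a description. In bulk RNA of this kind, fewer cells of a type and less RNA per cell cannot be told apart.

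**Figure D1:**
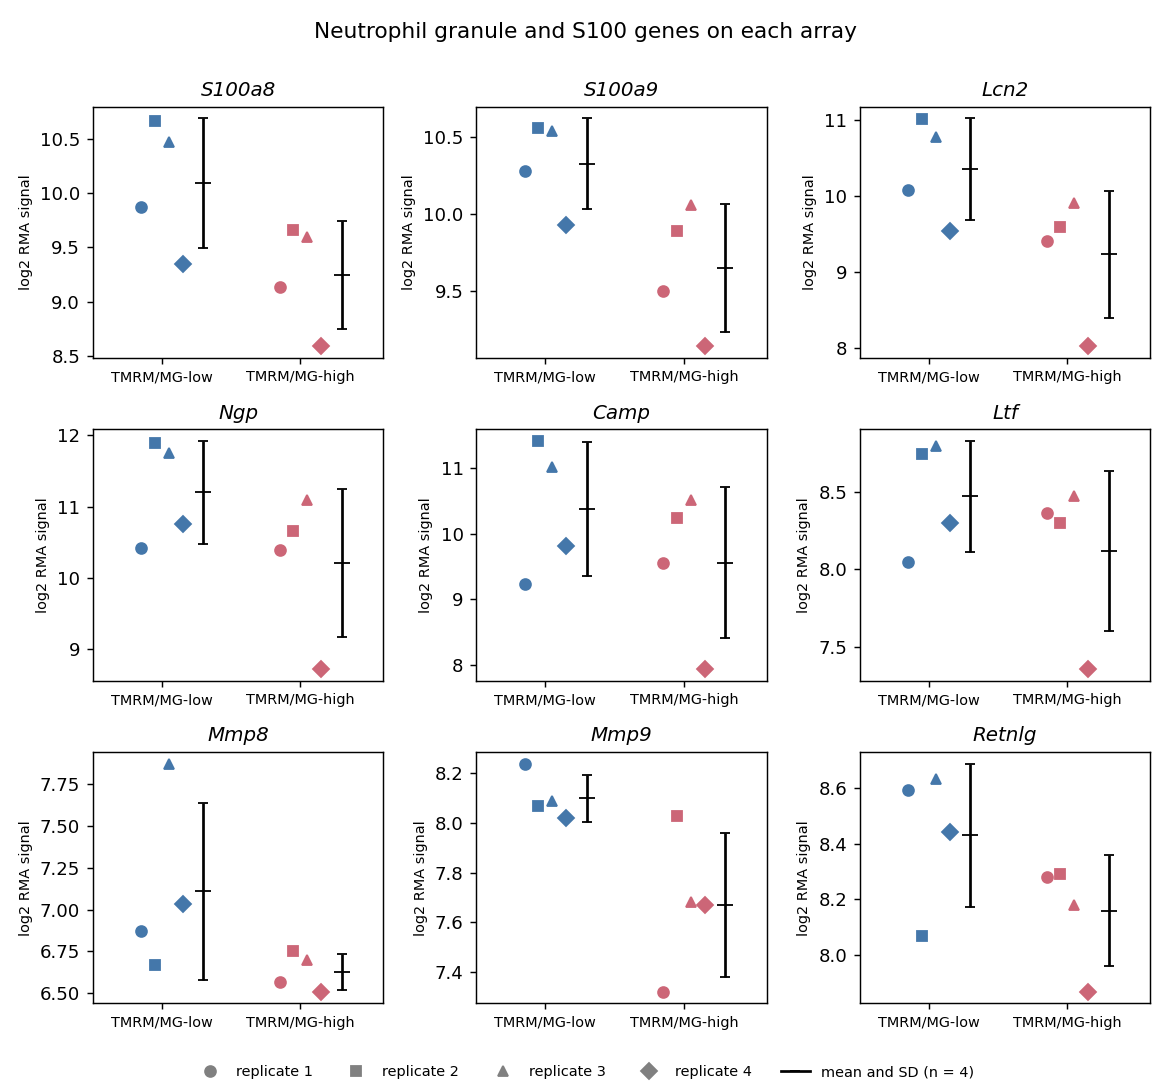
Log2 RMA signal (vertical axes, each panel with its own scale) of the 9 measured genes on the 4 TMRM/MG-low and 4 TMRM/MG-high arrays, with symbols for the replicate numbers and the mean and SD of each fraction (n = 4). The high mean is the lower one in every panel and the fractions overlap in every panel; for Camp the low arrays reach from 9.23 to 11.41 and the high arrays from 7.94 to 10.51.

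Of the calprotectin pair, S100a9 came closest to a call of the 9 members. S100a8 (probe set TC0300000811.mm.2) read 9.87, 10.66, 10.47 and 9.35 on low replicates 1 to 4, and 9.14, 9.66, 9.60 and 8.59 on high replicates 1 to 4. Low replicates 1 to 3 lay above every high array, while low replicate 4 fell among the high arrays. TMRM/MG-high cells had a mean of 9.25 ± 0.496 against 10.09 ± 0.597 in TMRM/MG-low cells (SD, n = 4 each), a difference of -0.84 (SE 0.284, 95% interval -1.46 to -0.22, limma adjusted p = 0.0892), or 1.79-fold less signal, and -0.62 without high replicate 4. S100a9 (TC0300002376.mm.2) read 10.28, 10.56, 10.54 and 9.93 on the low arrays and 9.50, 9.89, 10.06 and 9.14 on the high arrays. As for its partner, low replicate 4 was the only low array within the span of the high arrays. The difference was -0.68 (SE 0.194, interval -1.10 to -0.26, limma adjusted p = 0.0514), just short of a call, and -0.51 without high replicate 4. S100a9 was called lower when the arrays were quantile normalized again (-0.75, adjusted p = 0.0376), centred on their medians (-0.69, adjusted p = 0.0450) or taken without low replicate 4 (-0.81, adjusted p = 0.0435), in a range of adjusted p from 0.00986 to 1 over its alternatives. S100a8 was called without low replicate 4 (-1.09, adjusted p = 0.0428; range 0.00442 to 1).

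Among the specific granule genes, Lcn2 and Ngp had the largest differences of the 9 members, and Camp, Ngp and Lcn2 the widest spread. Lcn2 (TC0200003303.mm.2), which encodes lipocalin-2, a protein that withholds iron from bacteria by binding their siderophores, read 10.07, 11.01, 10.77 and 9.54 on the low arrays and 9.41, 9.59, 9.90 and 8.02 on the high arrays. Low replicate 4 again lay below the topmost high array. Its difference was -1.12 (SE 0.385, interval -1.96 to -0.28, limma adjusted p = 0.0947), 2.17-fold on the linear scale, and without high replicate 4 it was -0.71. Ngp (TC0900001461.mm.2), a cystatin-like granule protein gene, read 10.42, 11.89, 11.75 and 10.76 on the low arrays and 10.39, 10.66, 11.09 and 8.72 on the high arrays. Low replicates 2 and 3 stood above all others and high replicate 4 far below them. The difference of -0.99 (SE 0.454, limma adjusted p = 0.197) became -0.49 without high replicate 4.

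Camp (TC0900003098.mm.2), the gene of the cathelicidin precursor from which the antimicrobial peptide is cut, had the largest standard error of the 9. It read 9.23, 11.41, 11.02 and 9.81 on the low arrays and 9.55, 10.23, 10.51 and 7.94 on the high arrays, so low replicate 1 lay below 3 of the 4 high arrays. The SD reached 1.15 among the high arrays and 1.02 among the low arrays, both larger than the difference of -0.81 (SE 0.549, interval -2.01 to 0.39, limma adjusted p = 0.389). Without high replicate 4 it was -0.27, and without low replicate 2 it was -0.46. Ltf (TC0900001481.mm.2), which encodes the iron-binding protein lactoferrin, read 8.05, 8.74, 8.79 and 8.30 on the low arrays and 8.36, 8.30, 8.47 and 7.36 on the high arrays. High replicates 1 to 3 were within the span of the low arrays and only high replicate 4 lay below it. The difference was -0.35 (SE 0.233, limma adjusted p = 0.382) and -0.09 without that array.

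The matrix metalloproteinase genes were not called either. Mmp9 (TC0200002542.mm.2), gelatinase B, read 8.24, 8.07, 8.09 and 8.02 on the low arrays and 7.32, 8.03, 7.68 and 7.67 on the high arrays. The fractions met only at high replicate 2 and low replicate 4, and the lowest value was on high replicate 1. The difference was -0.43 (SE 0.130, interval -0.71 to -0.15, limma adjusted p = 0.0625). Leaving out high replicate 4 kept it at -0.43. Mmp9 was called without high replicate 2 (-0.55, adjusted p = 0.0385; range 0.0385 to 1 over its alternatives). Mmp8 (TC0900000050.mm.2), neutrophil collagenase, read 6.87, 6.67, 7.87 and 7.03 on the low arrays and 6.57, 6.75, 6.70 and 6.51 on the high arrays. It exceeded the array's negative control median on 3 of 8 arrays, so its level was at background on the others, and its difference of -0.48 (SE 0.204, limma adjusted p = 0.169) was -0.22 without low replicate 3 and -0.44 without high replicate 4.

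Retnlg (TC1600000699.mm.2), which encodes the resistin-like protein gamma of myeloid cells, read 8.59, 8.07, 8.63 and 8.44 on the low arrays and 8.28, 8.29, 8.18 and 7.87 on the high arrays. Here low replicate 2, at or near the top for the specific granule genes, was the lowest low array. The difference was -0.28 (SE 0.135, interval -0.57 to 0.02, limma adjusted p = 0.222), and -0.18 without high replicate 4. Apart from Mmp8, each member was above the negative control median on all 8 arrays. S100a8, for instance, exceeded 81.1% to 97.8% of the 5222 negative (intron) control probe sets, Camp 70.0% to 98.7%, and Ltf 58.8% to 85.7%. For Mmp9 the share was 60.9% to 78.6% and for Retnlg 68.7% to 83.9%, so many control probe sets read brighter than these genes.

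The arrays did not all order the members in the same way. Low replicate 3 was among the top 2 arrays for all 9 members, and low replicate 2 was the topmost for S100a8, S100a9, Lcn2, Ngp and Camp. High replicates 2 and 3 were above the mean of their own fraction for 9 of 9 members, and high replicate 4 was below it for 9 of 9. The mean level of the 9 genes was 9.07, 9.68, 9.77 and 9.02 on low replicates 1 to 4 and 8.73, 9.04, 9.13 and 7.98 on high replicates 1 to 4. The fractions overlapped in this mean as well: low replicates 1 and 4 lay below high replicate 3, and low replicate 4 also below high replicate 2.

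**Figure D2:**
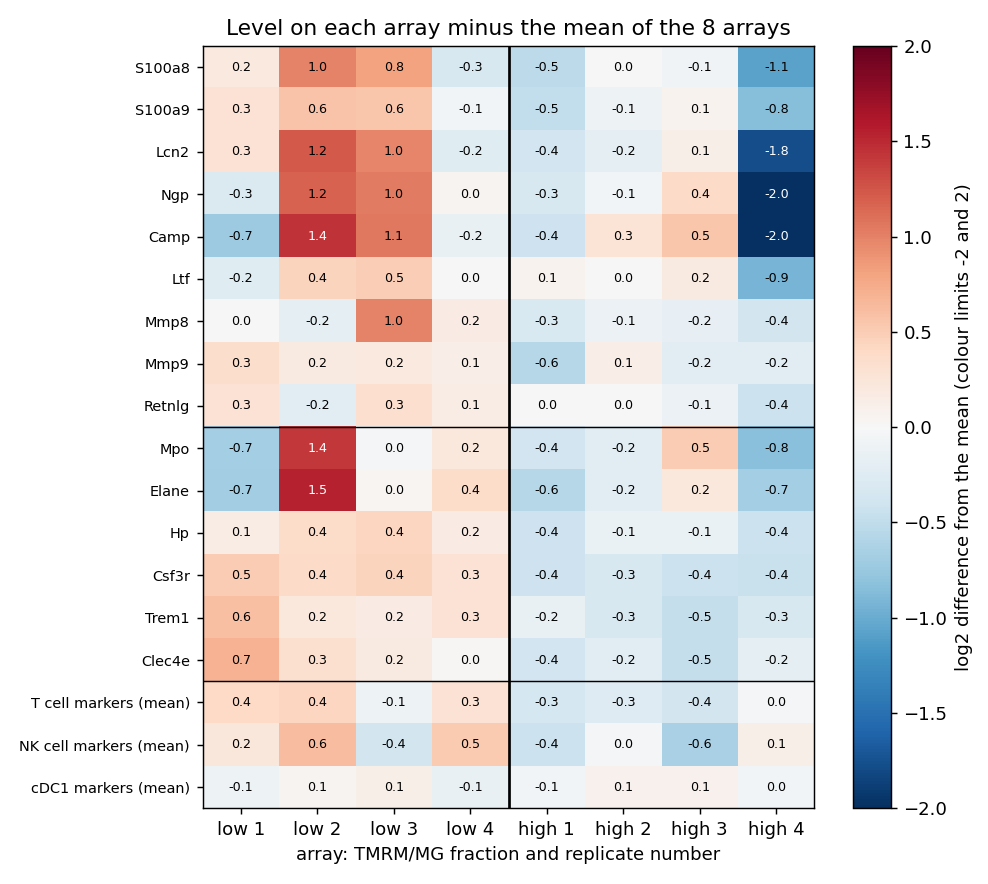
Log2 level on each array minus the mean of the 8 arrays, for the 9 members (top), 6 other granule and receptor genes (middle) and the means of 3 marker lists (bottom); columns are the arrays by fraction and replicate number, and colour and printed value give the same difference. Low replicates 2 and 3 are high and high replicate 4 is low for S100a8, S100a9, Lcn2, Ngp, Camp and Ltf, whereas Csf3r is even within each fraction.

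The spread of the members was large beside that of the other genes on the arrays. Camp had the widest range of all 22206 probe sets, 3.47 on the log2 scale or 11.1-fold from the lowest to the highest array. The range of Ngp was 3.17 and that of Lcn2 2.99, and 3 and 4 probe sets, themselves included, reached as far. For S100a8 (2.07) that number was 23, for Ltf (1.43) 142 and for S100a9 (1.43) 147. Mmp9 (0.92) and Retnlg (0.76) were less unusual, with 6.18% and 13.5% of all probe sets at or above their range. The median range was 0.486 over all probe sets. The spread within the fractions was also wide: the residual SD, which leaves out the difference between fractions, had a median of 0.442 over the members and 0.147 over all probe sets.

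**Figure D3:**
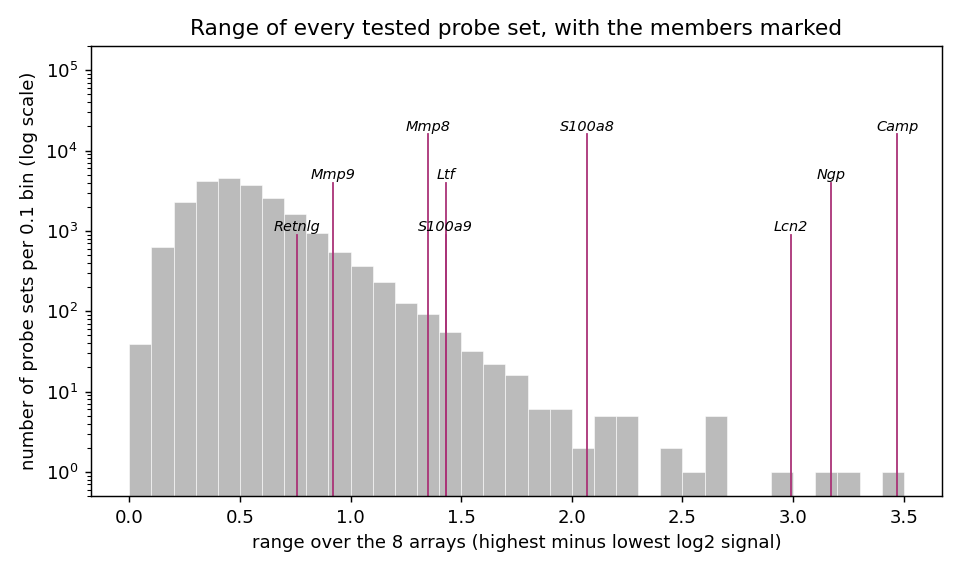
Number of probe sets (log scale) by their range over the 8 arrays, the highest minus the lowest log2 signal, in bins of 0.1; lines mark the 9 members. Camp (3.47) is at the far right end, with Ngp (3.17) and Lcn2 (2.99) close by, while Retnlg (0.76) and Mmp9 (0.92) lie within the bulk.

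Genes with a pattern like that of Camp were looked for by the root mean square difference of the mean-centred log2 levels over the 8 arrays, among the 37 other named genes with a range of at least 1.73. The nearest were Mpo (0.603) and Elane (0.664), which encode myeloperoxidase and neutrophil elastase of the azurophil granules. Prg2 (0.870), an eosinophil granule protein gene, Kdm5d (0.923) and Apbb2 (0.940) followed at a greater distance. Unlike Camp, Kdm5d was highest on low replicate 1 (6.81) and Apbb2 on high replicate 2 (8.10). Among the members, Ngp differed from Camp by 0.236, Lcn2 by 0.441 and S100a8 by 0.561, less than Mpo. Ltf (0.631) and S100a9 (0.689) were farther from Camp than Mpo was, and Mmp8 (0.922), Mmp9 (0.963) and Retnlg (0.979) lay about as far as Kdm5d and Apbb2. The distance was not scaled by range, so it counts the size of the swings as well as their shape. A smaller range alone places a gene farther from Camp: Ltf and S100a9 each had a range of 1.43 and Mpo one of 2.25. Mpo read 8.04, 10.13, 8.70 and 8.93 on the low arrays and 8.33, 8.51, 9.23 and 7.88 on the high arrays. Its topmost array was low replicate 2 and its lowest high replicate 4, as for Camp, but low replicate 3 was not raised. Elane was highest on low replicate 2 (10.30) as well. Neither passed the test (Mpo -0.46, SE 0.374, limma adjusted p = 0.481; Elane -0.63, SE 0.369, adjusted p = 0.318). Single arrays moved these differences: without low replicate 2 they were -0.07 for Mpo and -0.21 for Elane, and without low replicate 1 they were -0.76 and -0.96. Mpo was -0.26 without high replicate 4 and -0.71 without high replicate 3. Prg2 differed by 0.27 and was called without low replicate 2 (0.66, limma adjusted p = 0.0387). Kdm5d, a Y-linked gene, read 5.05 on low replicate 4 and 5.05 on high replicate 4 and between 6.33 and 6.81 on the other 6 arrays, so both arrays numbered 4 differed from the rest in this gene.

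Few of the remaining granule genes were called, as was the case for all probe sets (5.28% called higher and 2.96% lower). Of 10 azurophil granule genes measured, 1 rose and 0 fell, with a median difference of -0.25. The rise was in Prss57, a granule serine protease gene, from 8.54 ± 0.278 in the low to 9.13 ± 0.167 in the high fraction (0.59, SE 0.135, limma adjusted p = 0.0254). The low arrays reached up to 8.80 and the high arrays began at 8.92. The Prss57 call was lost without any of 5 arrays: low replicate 1 (0.46, adjusted p = 0.0521), 2 (0.62, 0.0507) or 4 (0.60, 0.0533) and high replicate 2 (0.56, 0.0796) or 3 (0.53, 0.0794). Of 14 other specific granule genes, 0 rose and 1 fell, Hp, which encodes haptoglobin. Hp read 8.78 to 9.06 on the low and 8.21 to 8.51 on the high arrays, a difference of -0.55 (SE 0.106, limma adjusted p = 0.0142) that held on leaving out any array. Of 9 other gelatinase granule and secretory vesicle genes none was called; Adam8, a surface protease gene, differed by -0.22 (SE 0.0882, limma adjusted p = 0.138) and Mmp25 by 0.10 (SE 0.0958). Adam8 was called with dim probe sets left out (adjusted p = 0.0293) and with the trend and robust fit (0.0171).

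The other S100 genes were called about as often as all probe sets. Of 16 other genes on the S100 list, 1 rose, 0 fell, and the median difference was 0.15. S100a1, a calcium sensor gene best known from muscle, read 7.63 to 8.22 on the low and 8.42 to 8.79 on the high arrays (0.68, SE 0.126, limma adjusted p = 0.0125). Among the 13 receptors and partners of the secreted members, Cd36, a scavenger receptor that has been described to bind calprotectin, rose by 0.37 (SE 0.0983, adjusted p = 0.0428), and 0 fell. That call was lost without any 1 of 7 arrays, all but low replicate 3 (0.32 to 0.39), and after quantile normalization (0.30, adjusted p = 0.0681) or centring (0.35, 0.0527). The receptor genes Tlr4 (-0.11, SE 0.144) and Ager (-0.17) were not called.

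Of 12 transcription factors of granulocyte differentiation and of 10 inhibitors and activators of matrix metalloproteinases none was called. The former include Spi1 (-0.07, SE 0.0784), the latter Cd44 (0.02, SE 0.0839) and the inhibitor Timp2 (0.06, SE 0.152). Cebpe, the C/EBP factor needed for specific granules, differed by -0.19 (SE 0.137, limma adjusted p = 0.410). Among 12 other Mmp genes none was called, and Mmp28 differed by -0.12 (SE 0.144). The 3 other resistin genes were not called either, with Retn at 0.18 (SE 0.107) and Retnlb, below the negative control median on all arrays, at -0.20. In the Ly6 family, to which Ly6g belongs, 3 of 15 measured genes were called higher, beside 5.28% of all probe sets. These were Ly6c2 (0.85, SE 0.132, limma adjusted p = 0.00677), Ly6c1 (0.72, SE 0.116) and Ly6d (0.55, SE 0.113). Ly6c2 is also on the monocyte marker list used here. Ly6d is also on the plasmacytoid DC list, of which 8 of 10 were called higher. Ly6c1 and Ly6c2 are near-identical, so their probes may share signal, and Ly6d was no longer called when low replicate 1 was left out (0.50, adjusted p = 0.0502) or high replicate 2 (0.51, 0.0597).

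Some receptor genes on the neutrophil marker list were called lower, Csf3r with little spread. Of 21 neutrophil markers other than the members, 0 were called higher and 4 lower, with a median difference of -0.10. Of all probe sets, 5.28% were called higher and 2.96% lower. The mean was lower in 13 of the 21. The rest were higher without a call, among them Asprv1 (0.26, SE 0.105, limma adjusted p = 0.147) and Cxcr4 (0.14, SE 0.0904). Csf3r, the receptor of the granulocyte growth factor G-CSF, read 10.88, 10.75, 10.81 and 10.66 on the low arrays and 9.96, 10.05, 9.94 and 9.93 on the high arrays. The fractions were far apart, with an SD of 0.0537 among the high arrays and 0.0907 among the low arrays, and the difference of -0.81 (SE 0.0804, limma adjusted p = 0.00065) equalled that of Camp in size. High replicate 4, which stood far below the other high arrays for Camp, was level with high replicates 1 and 3 for Csf3r. Trem1, an amplifying receptor of myeloid cells, fell by 0.63 (SE 0.110, adjusted p = 0.0104), Clec4e, the C-type lectin Mincle, by 0.62 (SE 0.135, adjusted p = 0.0218) and Mrgpra2b by 0.61 (SE 0.153, adjusted p = 0.0340). Clec4e was no longer called when low replicate 2 was left out (-0.61, adjusted p = 0.0533), high replicate 2 (-0.65, 0.0522) or high replicate 3 (-0.56, 0.0709). The Mrgpra2b call was lost without low replicate 1 (-0.56, 0.0900) or 2 (-0.54, 0.0895) or high replicate 1 (-0.54, 0.0644), 2 (-0.69, 0.0535) or 4 (-0.48, 0.0803), and with array weights (-0.52, 0.0519). The neutrophil receptors Cxcr2 (-0.24, SE 0.0939, adjusted p = 0.138) and Clec4d (-0.54, SE 0.169, adjusted p = 0.0715) were not called, and the stefin genes Stfa1, Stfa2 and Stfa3 were below the negative control median on every array.

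**Figure D4:**
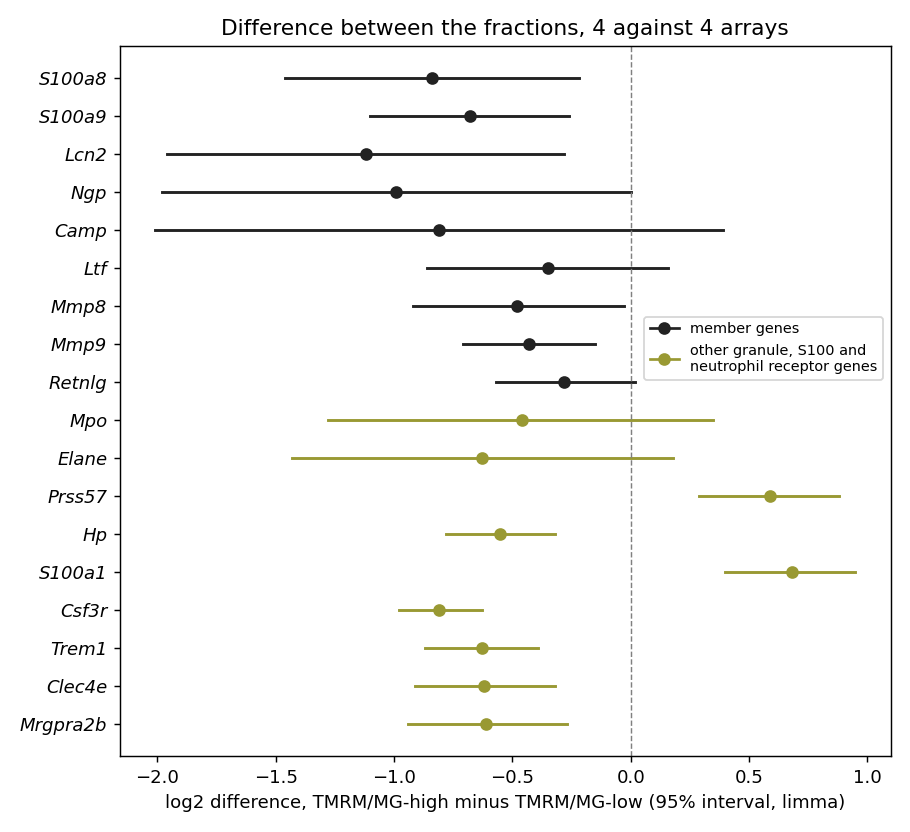
Log2 difference between the fractions, TMRM/MG-high minus TMRM/MG-low, with its 95% interval from limma (4 against 4 arrays), for the 9 members (black) and 9 other genes of granules, the S100 family and neutrophil receptors (olive). The intervals of Camp (-2.01 to 0.39) and Lcn2 (-1.96 to -0.28) are wide, and that of Csf3r, at a difference of -0.81, is the narrowest shown.

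Markers of other cell types also differed between the fractions, and their part in the results above was not tested. The summed signal of the 21 other neutrophil markers, as log2, was 14.02 to 14.24 on the low and 13.85 to 13.99 on the high arrays. A sum weighs bright probe sets most. The mean level of the same markers overlapped, at 8.71 to 8.89 on the low and 8.55 to 8.72 on the high arrays. Of 10 T cell markers 5 fell and 0 rose, beside 2.96% and 5.28% of all probe sets. Their summed signal was 12.28 to 12.85 on the low and at most 12.31 on the high arrays. For 9 NK cell markers it was 12.19 to 13.19 and 11.95 to 12.67. Of these 0 were called lower and Klrk1 was called higher, though 8 of the 9 had a lower mean (median difference -0.55). The 10 plasmacytoid DC markers went the other way, with 8 rises and 13.04 to 13.15 against 13.64 to 13.99. Low replicate 3 had the highest mean of the 9 members. For the T cell (8.69) and NK cell (8.87) markers it had the lowest mean of the low arrays. High replicate 4, with the lowest mean of the members, had the highest mean of the high arrays for both (8.74 and 9.36). Low replicate 2, topmost for Camp, had the highest mean of the T cell (9.21) and NK cell (9.85) markers. How these orders relate was not tested. Eosinophil, basophil and mast cell markers (11 measured) were not called, at 11.21 to 11.57 on the low and 11.20 to 11.49 on the high arrays, with Ms4a2 below the negative control median throughout. The level of the spike-in controls, known amounts of foreign RNA, moved with the fractions as well: its mean was 9.79 to 10.23 on the low and 8.88 to 9.43 on the high arrays. With that mean as a covariate, chosen after the data had been seen, all 9 members kept a negative difference; 0 probe sets of any kind were then called, the members' estimates having standard errors of 0.312 to 1.45.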

How the data were processed

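Deposited log2 values of 8 arrays, 1 per sample, were used. Per the submitters' processing notes the authors made them with RMA in Affymetrix Expression Console 1.1, which subtracts background, equalises the distributions of the arrays and combines probes into probe sets; a change common to most transcripts cannot be seen in such values. Per the labels' protocols, total RNA was extracted with the Rneasy Micro kit and labelled with the Whole Transcript Plus kit. The files' build: not given in the sources used.

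Of 28846 rows, 6640 control probe sets were left out. The fractions were compared over the 22206 others with limma 3.58.1 (lmFit, then eBayes; R 4.3.3), with no block. Tests were two-sided at an adjusted p (Benjamini-Hochberg) of 0.05, and intervals are 95%. The code was tested on simulated data. All 19572 named probe sets carried 1 symbol, and 2634 had none; a gene with several was given by the brightest. The 9 members matched RefSeq by Entrez ID. Promoters were searched in RefSeq sequences. The members and lists were chosen with earlier results of these data known.

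Named genes are the members, up to 4 called genes of each list (otherwise the 2 of highest mean), and the 5 most like the member of widest range; other genes were picked with their values in view. Alternatives were the replicate number as a block, other scalings, leaving out dim probe sets, a trend with a robust fit, array weights, leaving out each array and, added later, a spike-in covariate (mean of the spike-in probe sets). The number of arrays limits precision. Figures were drawn with matplotlib 3.10.9.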

Additional observations from a re-analysis of the deposited data

Results flagged for a closer look

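Of 70 groups of 4 arrays (35 named genes in 2 fractions), 3 held an array whose gap to the nearest other, as a share of the group's range, exceeded the Dixon limit for 4 values; chance gives this in about 1 group in 20. Ltf read 7.36 on high replicate 4, while the other high arrays lay between 8.30 and 8.47. Irf8, a lineage factor of cDC1, read 12.41 on low replicate 4, while the other low arrays lay between 12.59 and 12.62. Apbb2 read 8.10 on high replicate 2, while the other high arrays lay between 7.11 and 7.19.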

How the results depend on the processing

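All 9 member differences kept their negative sign under every alternative run, with adjusted p changing side for S100a8, S100a9, Lcn2 and Mmp9. The number of members called lower was 0 as reported, 1 after quantile normalization, after centring or with dim probe sets left out (S100a9, with 3 members entering), 2 with the trend and robust fit (S100a9 and Mmp9) and 0 to 2 on leaving out single arrays. All probe sets called higher were 1950 with the trend and robust fit, 183 to 1680 on leaving out single arrays and 0 with the spike-in covariate; called lower they were 218 to 793 and 0, with 472 and 568 at an unadjusted p under 0.05. Fractions share replicate numbers, but same-numbered arrays deviated together weakly (r = 0.0152 to 0.271 over probe sets). Only 1 of 4 high and 2 of 4 low arrays correlated best with their own number. The numbers were not taken as pairs in the main test, though a weak correlation over all probe sets cannot exclude pairing. The labels do not settle this, and Kdm5d was low on both arrays numbered 4 (5.05, beside 6.33 to 6.81 on the other 6). With the replicate block 3 members were called lower, S100a8 (adjusted p = 0.00442), S100a9 (0.00986) and Lcn2 (0.00962), and 1225 and 650 probe sets; high minus low of S100a8 was -0.73, -1.01, -0.87 and -0.76 for numbers 1 to 4. Signs turned for these named genes that are no members. With the spike-in covariate these were Adam8 (0.03), Cd44 (-0.25), Timp2 (-0.83), Spi1 (0.07), Mmp12 (-0.87) and Mmp28 (0.07). Cd44 turned after quantile normalization (-0.06) and without low replicate 1 or high replicate 3 (-0.01 each; up to 0.06 on leaving out others), Timp2 without low replicate 2 (-0.03) or high replicate 4 (-0.04; up to 0.18), Mmp28 without high replicate 4 (0.01; down to -0.24), Apbb2 without low replicate 4 (-0.10; up to 0.51), and Kdm5d without low replicate 4 (-0.33) or high replicate 1 (-0.11), 2 (-0.15) or 3 (-0.0024). Kdm5d reached 0.42 on leaving out others. The causes were not tested. Mmp8 near background limits its size.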

Other observations

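Mmp12, the macrophage elastase, was measured as one of the other matrix metalloproteinases and varied over a range of 2.19. Its difference between the fractions was not called (0.38, SE 0.346, limma adjusted p = 0.537) and was 0.06 without high replicate 4, 0.09 without low replicate 2 and 0.65 without low replicate 4. It was lowest on low replicate 2 (9.27) and highest on high replicate 4 (11.46), the arrays on which Camp was highest and lowest. The mean of 12 red pulp macrophage markers, none of them called, was also lowest on low replicate 2 (9.70) and highest on high replicate 4 (10.35). High replicate 1 was almost as low (9.71). High replicate 4 also had the highest mean of monocyte (9.79) and B cell (10.11) markers, but the lowest of erythroid markers (8.25). These patterns were noticed after the values were seen, over 8 arrays, and were not tested.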
